A study of Nicotiana tabacum with 6 samples.

Results

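F-box proteins are the substrate-binding subunits of SCF ubiquitin ligases, which consist of a SKP1-like adaptor, a cullin, a RING-box protein and an F-box protein. The F-box motif binds the adaptor, and the rest of the protein, often kelch repeats or leucine-rich repeats (LRR), holds the target that is ubiquitinated and then degraded. In Arabidopsis, members of this large family act in ethylene, abscisic acid, strigolactone and light responses and in the germination of seeds. The genes described here are those of the deposited tobacco tables whose first protein description contains the term F-box, and whose description does not mention auxin, ethylene or gibberellin. There were 276 such genes among 31766 genes in the tables, of which 52 were described as kelch-repeat, 64 as LRR-repeat and 160 as other F-box proteins. The assignment rests on the description alone, so some genes in the last class, such as those for EIN3-binding F-box proteins, which hold LRRs in Arabidopsis, may have repeats that their description does not mention. No sequence of these genes was used here.

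RNA was sequenced from 6 libraries of Nicotiana tabacum (var. Xanthi), each an equimolecular pool of 4 RNA samples. Transgenic (T) lines, homozygous for a single insertion, were compared with their nontransgenic (NT) siblings in 3 comparisons of 1 library with 1 library. DS10:A9 seeds overexpressed the sunflower heat stress factor A9 and DS10:A4a seeds the sunflower factor A4a, both from the seed-specific DS10 promoter, and each had its own NT seed library at 1 day of imbibition in the dark. In 35S:A9 seedlings the 35S promoter drove A9 in vegetative organs, and these and the NT seedlings were 3 weeks old and grown in cycles of 16 h light and 8 h dark. The sample labels give the same cycles for the seeds, whereas the paper states that the seeds were imbibed in the dark. Seeds of all lines also express tobacco's own A9. No listed gene was described as a sunflower protein or as heat stress factor A-9, so the labels could not be checked on the transgenes, and a gene described as A-4c-like (gene_72203) was at 3.02 in NT and 7.72 in DS10:A4a seeds. In RNA from whole seeds or seedlings, fewer cells of a type and less RNA per cell cannot be told apart. Markers of green tissue (75 genes, among them chlorophyll-binding proteins) were listed at FPKM values of up to 1432 in seedlings and up to 76.1 in seeds, whereas the 6 listed genes for seed storage, oleosin and late embryogenesis abundant proteins, which the tables give for seeds only, were between 0 and 20.5.

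The deposited tables give expression as FPKM (fragments per kilobase of transcript and per mapped depth, as the authors scaled it). The A9up table lists genes higher in both A9 comparisons, and the A4a tables list genes higher or lower in DS10:A4a seeds, at a log2 threshold of 0.6 for higher and -0.5 for lower genes. Genes that did not pass are not listed, so the share of measured F-box genes that changed is unknown. Within a comparison each condition is a single library, so p-values are not given. The fragments behind each FPKM were recovered from the values, with depths between 11300000 and 16372000 fragments, and gave a 95% exact binomial (Clopper-Pearson) interval for each log2 fold. Where FPKM values are given as a pair, the NT library comes first. The counting interval covers counting error between 2 libraries only, and not differences between plants, lines or pools. It also makes no allowance for the listing of genes by their fold in the same 2 libraries.

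Of the 276 F-box genes, 258 were listed in the A4a tables. In DS10:A4a seeds 114 F-box genes were higher and 144 were lower than in NT seeds. This is 44.2% higher (95% interval 38.0 to 50.5), where 46.0% of all listed genes were higher and 54.0% were lower. The interval holds the share of all listed genes. The cutoffs are unequal, and with -0.6 as the cutoff for lower genes 121 F-box genes were lower. The share of higher genes was then 48.5% (114 of 235), beside 49.5% of all genes listed at these cutoffs. Here and below, the interval of a share treats genes as independent, although copies can share fragments. Genes are not replicates, so it describes the split in these libraries only and is not a test. Kelch-repeat genes were higher in 27 of 51 cases, LRR-repeat genes in 27 of 56 and other F-box genes in 60 of 151, and the intervals of all 3 shares (38.5 to 67.1%, 34.7 to 62.0% and 31.9 to 48.0%) hold the 46.0% of all genes. The median change of the 258 genes on log2(FPKM + 0.1) was -0.44, beside -0.42 for all 29629 listed genes.

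Most of these genes were at low levels. The median FPKM of the listed F-box genes was 0.34 in NT seeds against 0.33 in DS10:A4a seeds, from a median of 7 fragments in each library, beside 4 fragments over all listed genes. Only 88 of the 258 reached an FPKM of 1 in a library, 38 of them higher and 50 lower, where 40.4% of all listed genes at this level were higher and 59.6% lower. A counting interval above 0 was found for 33 F-box genes and one below 0 for 38. These were 12.8% and 14.7% of the listed F-box genes, beside 8.93% and 11.8% of all listed genes. Of the genes in each direction, 28.9% of the higher and 26.4% of the lower F-box genes had such an interval, beside 19.4% and 21.8% over all genes. Among genes with at least 10 fragments over both libraries, the shares were 21.4% and 24.0% for F-box genes and 17.8% and 24.2% for all genes.

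**Figure D1:**
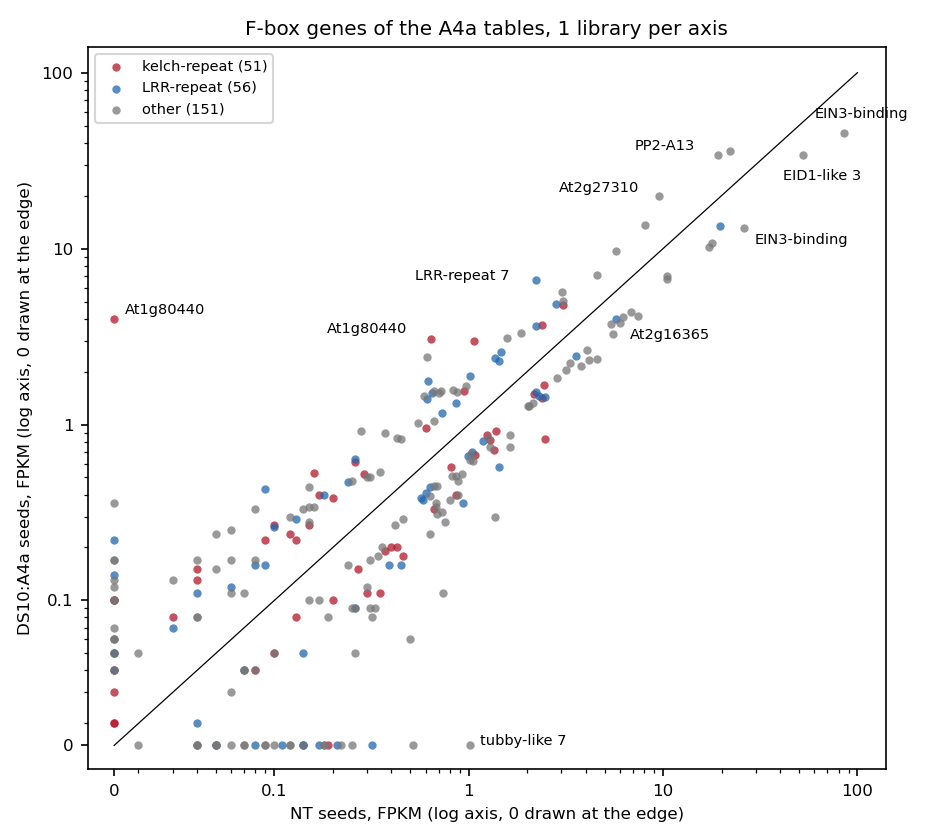
FPKM of the 258 F-box genes of the A4a tables in NT seeds (x axis) and DS10:A4a seeds (y axis), on log axes with 0 drawn at the edge; each point is a gene, coloured by type, and the line marks equal values. The gap along the line holds the genes that did not pass the threshold, the EIN3-binding genes lie below the line and the PP2-A13 genes above it, and an At1g80440-like gene is at 0 in NT seeds and 4.00 in DS10:A4a seeds.

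The 5 F-box genes with the highest mean FPKM in the seeds of this comparison were in the class of other F-box proteins, and those for EIN3-binding F-box proteins were all lower in DS10:A4a seeds. In Arabidopsis these proteins, EBF1 and EBF2, bind the ethylene transcription factor EIN3 and lead to its degradation. The EIN3-binding F-box protein 1-like gene_24448 was at an FPKM of 84.8 in NT seeds against 45.6 in DS10:A4a seeds (log2 fold -0.89, counting interval -0.97 to -0.82). The second gene of this description, gene_20707, was at 26.1 and 13.2 (log2 fold -0.98, -1.13 to -0.84). Genes for EIN3-binding F-box protein 2-like were at 17.9 and 10.7 (gene_24128) and at 17.2 and 10.3 (gene_24121), both with a log2 fold of -0.74 (-0.90 to -0.58). In each of these pairs 1 gene was nearest to a protein of Nicotiana sylvestris and the other to one of Nicotiana tomentosiformis, the parental species of tobacco. All 4 thus had an interval below 0, and none was listed in the A9up table. Fragments of near-identical copies can be divided between genes by the counting, so the values of a pair may not be independent.

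The gene with the second highest mean FPKM was gene_11848, for EID1-like F-box protein 3, at 52.7 in NT seeds against 34.0 in DS10:A4a seeds (log2 fold -0.63, -0.80 to -0.46). The Arabidopsis protein of this name (EDL3) acts in abscisic acid responses, including those of germinating seeds. The other 2 genes of this name were higher but rested on 5 fragments or fewer (gene_37728 at 0.06 and 0.25, and gene_52981 at 0 and 0.07), and their intervals hold 0. The name was thus represented at a high level by 1 gene only.

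The locus At2g16365, to which the descriptions of 6 genes refer, is known in Arabidopsis as PCH1, which binds phytochrome B and prolongs its activity. Whether the proteins of the 6 tobacco genes act in this way was not tested. All 6 were lower in DS10:A4a seeds, 5 of them with a counting interval below 0. The most abundant was gene_37275, at 6.85 in NT seeds against 4.38 in DS10:A4a seeds (log2 fold -0.65, -0.95 to -0.34). The next, gene_19558, was at 5.98 and 3.79 (log2 fold -0.66, with -0.31 as the upper end of the interval). The others were at 3.78 and 2.15 (gene_3716), 3.15 and 2.04 (gene_48456), 1.29 and 0.75 (gene_19557) and 0.36 and 0.20 (gene_37270). Only the last, with 26 and 14 fragments, had an interval that holds 0. The log2 folds of the 6 genes lay between -0.85 and -0.63.

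Tubby-like F-box proteins, which combine the F-box with a tubby domain, were lower in all 6 cases, 3 of them with an interval below 0. Tubby-like F-box protein 8 (gene_42547) was at 3.34 in NT and 2.23 in DS10:A4a seeds (log2 fold -0.58, -1.03 to -0.15), and tubby-like F-box protein 5 (gene_62693) at 2.04 and 1.28 (log2 fold -0.67, -1.32 to -0.05). Tubby-like F-box protein 7 (gene_79081) was at 1.01 in NT seeds, from 9 fragments, and listed at 0 in DS10:A4a seeds, at least 3.03-fold lower when 3 counts are allowed in the DS10:A4a library. The remaining 3 genes had at most 16 fragments in a library.

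**Figure D2:**
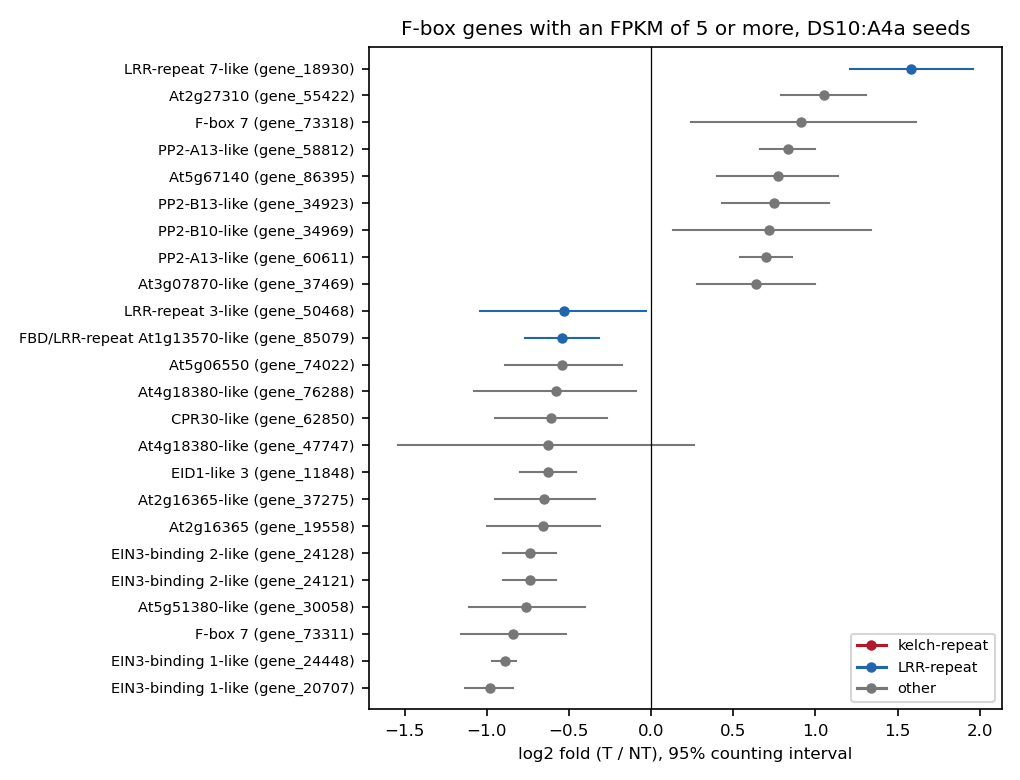
Log2 fold (DS10:A4a over NT seeds) with 95% counting intervals for the 24 F-box genes at an FPKM of 5 or more in either library, coloured by type and ordered by fold. The 9 higher genes lie above 0.6 and the 15 lower ones below -0.5 by the threshold of the tables, no kelch-repeat gene reaches this level, and 1 lower gene (gene_47747) has an interval that holds 0.

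Genes named after phloem protein 2 (PP2), whose F-box members carry a PP2 lectin domain, included the most abundant F-box transcripts that were higher in DS10:A4a seeds. F-box protein PP2-A13-like gene_60611 was at 22.1 in NT seeds against 35.9 in DS10:A4a seeds (log2 fold 0.70, 0.54 to 0.86), and gene_58812 was at 19.3 and 34.3 (log2 fold 0.83, 0.66 to 1.00). Of 17 listed PP2 genes 10 were higher and 7 were lower, with 4 intervals above 0 and 1 below. The gene below 0 was PP2-A15-like gene_23653, at 2.84 and 1.85. The PP2-B12 genes gene_63350 (0.61 and 2.41) and gene_17207 (1.36 and 0.30) had large folds in opposite directions, from 10 and 11 fragments, and intervals that hold 0.

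The higher genes of 3 descriptions stood out by level or by fold. F-box protein At2g27310 (gene_55422) was at 9.55 in NT seeds against 19.8 in DS10:A4a seeds (log2 fold 1.05, 0.79 to 1.31). F-box/LRR-repeat protein 7-like (gene_18930) was at 2.22 and 6.64 (log2 fold 1.58, 1.21 to 1.96). All 3 genes of the At1g80440 description, a group chosen after its values were seen, were higher with intervals above 0. In Arabidopsis this locus encodes a kelch-repeat F-box protein (KMD1, also KFB20) that leads to the degradation of type-B response regulators of cytokinin signalling and of phenylalanine ammonia-lyase. Gene_15272 was listed at 0 in NT seeds and at 4.00 in DS10:A4a seeds, from 128 fragments, at least 42.3-fold higher when 3 counts are allowed in the NT library. Gene_76554 was at 0.64 and 3.05 (log2 fold 2.25, 1.52 to 3.08), and gene_12043 at 3.07 and 4.76 (log2 fold 0.63, 0.22 to 1.05). In DS10:A4a seeds the 3 genes were thus at similar levels, between 3.05 and 4.76, and they differed mainly in the NT library. Gene_15272 and gene_12043 were both nearest to Nicotiana sylvestris, and gene_12043 had 82 fragments in NT seeds and 128 in DS10:A4a seeds. Fragments of near-identical copies can be divided between genes, so the folds of these genes may not be independent, which was not tested.

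Other kelch-repeat genes were divided between the directions. HAWAIIAN SKIRT, which acts in the separation of floral organs in Arabidopsis, corresponds to At3g61590, and the gene of this description (gene_50481) was at 1.07 in NT seeds against 3.00 in DS10:A4a seeds, from 6 and 17 fragments (log2 fold 1.49, 0.08 to 3.12). SKIP11-like gene_52670, whose Arabidopsis counterpart was named for its interaction with SKP1, was at 2.38 and 3.70 (log2 fold 0.64, 0.25 to 1.04). The other SKIP11-like genes were lower. These were gene_68862 (1.28 and 0.82, log2 fold -0.64, -1.22 to -0.07), gene_64961 (0.81 and 0.57) and gene_11445 (0.30 and 0.11), and the intervals of the last 2 hold 0. Of the 17 SKIP genes, including kelch-repeat and other types, 7 were higher and 10 were lower, with 3 intervals above 0 and 1 below. The highest of the lower ones was SKIP25-like gene_62192, at 2.44 and 1.68, with an interval of -1.14 to 0.04. Among the 16 genes described by the locus At3g23880, 9 were higher and 7 lower, but the 3 with an interval off 0 were all lower. These were gene_31820 (2.46 and 0.83, log2 fold -1.57, -2.52 to -0.69), gene_66479 (2.38 and 1.41, log2 fold -0.76) and gene_785 (2.17 and 1.50, log2 fold -0.53). The 13 genes of the locus At3g06240 were divided 6 to 7, and both intervals off 0 were again below it. The largest count among them belonged to gene_59091, at 1.35 and 0.72 from 131 and 70 fragments (log2 fold -0.91, -1.36 to -0.49).

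Among LRR-repeat genes, the largest group was that of the locus At1g13570, with an FBD domain, where 10 genes were higher and 12 lower, with 4 intervals above 0 and 5 below. Its most abundant gene, gene_85079, was at 19.6 in NT seeds against 13.5 in DS10:A4a seeds (log2 fold -0.54, -0.77 to -0.32), and gene_27269 of the same description was at 2.81 and 4.82 (log2 fold 0.78, 0.36 to 1.20). Gene_42329 was at 3.58 and 2.45 (log2 fold -0.55, -1.03 to -0.09). LRR-repeat protein 3-like gene_50468 was at 5.71 and 3.96 (log2 fold -0.53, -1.04 to -0.03), and LRR-repeat protein 23 gene_33477 at 2.23 and 3.65 (log2 fold 0.71, 0.19 to 1.24). All 5 listed genes of the locus At3g03360 were lower, yet only gene_19309 (1.44 and 0.57) had an interval off 0. Of 4 genes of At3g26922, 2 were higher, such as gene_74536 (1.43 and 2.29, log2 fold 0.68, 0.05 to 1.32), and 2 were lower, such as gene_8459 (0.99 and 0.66). Of 5 genes of At1g67190, 4 were lower, led by gene_77254 (1.04 and 0.70) and gene_65405 (0.39 and 0.16), and none had an interval off 0.

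CPR30 (CPR1) restrains defence in Arabidopsis by leading to the degradation of resistance proteins. Of 13 CPR30-like genes 4 were higher and 9 were lower. The only one above an FPKM of 2 was gene_62850, at 6.22 in NT seeds against 4.08 in DS10:A4a seeds (log2 fold -0.61, -0.95 to -0.27), and it was also the only one with an interval off 0. The next among those outside the A9up table, gene_60411, was at 0.86 and 0.51. FBW2, which acts on ARGONAUTE1 in Arabidopsis, was represented by gene_70702 at 2.01 and 1.28 (interval -1.37 to 0.09) and gene_8289 at 0.72 and 1.55 (log2 fold 1.11, 0.10 to 2.17), and the third gene, gene_5950, was at 0.18 and listed at 0. A gene for SNE, a relative of the gibberellin signalling protein SLY1, was listed at 0 and 0.17 (gene_7800), from 2 fragments. No gene named MAX2, FKF1 or UFO was among the 276.

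Descriptions by further loci covered genes with less certain differences. Among the 11 listed genes of At3g07870, 4 were higher and 7 lower, and the only interval off 0 belonged to gene_37469, at 4.57 and 7.12 (log2 fold 0.64, 0.28 to 1.00). The locus At5g07610 had 6 higher and 3 lower genes, with gene_76362 at 0.28 and 0.92 (log2 fold 1.72, 0.44 to 3.17) and gene_39996 at 0.82 and 0.51, with an interval that holds 0. The lower gene of this locus with an interval below 0 was gene_24934, at 0.50 and 0.06 from 9 fragments and 1 (log2 fold -3.06, -8.64 to -0.33). At5g03100 had 4 in each direction, with gene_79256 at 0.37 and 0.89 and gene_3415 at 0.45 and 0.83, and no interval off 0. The 4 genes of At3g51171, among them gene_80805 (1.05 and 0.62) and gene_58759 (0.69 and 0.45), were all lower with at most 5 fragments in a library for these 2. Of the 3 listed genes of At1g60180, 1 was higher and 2 were lower, gene_74628 at 0.63 and 0.39, and none had an interval off 0.

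**Figure D3:**
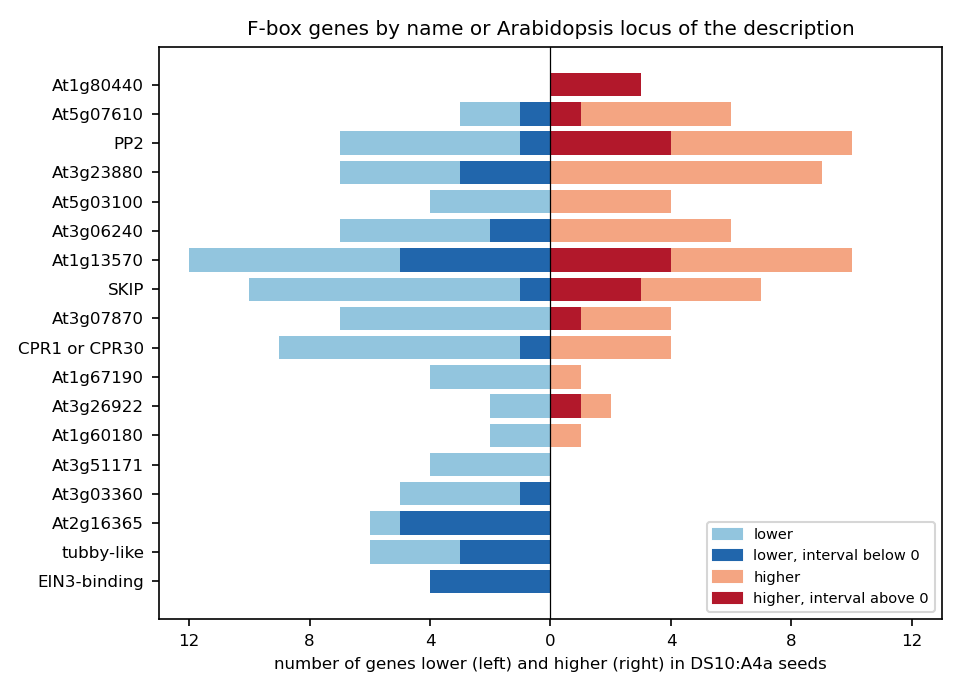
Number of F-box genes lower (left) and higher (right) in DS10:A4a seeds than in NT seeds, by name or Arabidopsis locus of the description, with the genes whose counting interval is off 0 in dark colour. The bars cover the names and loci with 4 or more genes and At1g80440, added for its values; all 4 EIN3-binding, all 6 tubby-like and all 6 At2g16365 genes are lower, all 3 At1g80440 genes are higher, and most other groups hold both directions.

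Tobacco holds copies from both parental species. For 11 descriptions exactly 1 gene nearest to Nicotiana sylvestris and 1 nearest to Nicotiana tomentosiformis were listed in the A4a tables, and both copies were listed in the same direction in 9 of them. The share over all listed genes was not computed, and fragments can be divided between copies, so this count says nothing particular to F-box genes. In 3 of the 11 pairs both copies reached an FPKM of 1, the EIN3-binding F-box proteins 1 and 2 and F-box protein At5g67140, and in all 3 the direction was shared. In the other pairs at least 1 copy stayed below this level. The At5g67140 genes were at 5.71 and 9.75 (gene_86395, log2 fold 0.77, 0.40 to 1.14) and at 1.85 and 3.33 (gene_18653, log2 fold 0.85, 0.14 to 1.58). In contrast, the 2 genes described as F-box protein 7, both nearest to Nicotiana sylvestris and named here after their values were seen, differed in direction, with gene_73311 at 7.39 and 4.13 (log2 fold -0.84, -1.16 to -0.52) and gene_73318 at 3.01 and 5.66 (log2 fold 0.91, 0.24 to 1.61). Genes nearest to Nicotiana sylvestris were higher in 47 of 97 cases and those nearest to Nicotiana tomentosiformis in 57 of 134, and both intervals (38.2 to 58.8% and 34.0 to 51.4%) hold the 46.0% of all listed genes.

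The A9up table, which lists genes higher with A9 in both seeds and seedlings, held 45 of the 276 F-box genes. This is 16.3% (12.1 to 21.2), beside 15.0% of all 31766 genes. They comprised 5 kelch-repeat, 14 LRR-repeat and 26 other F-box genes. All are higher in both comparisons by the way the table was made, so their direction is not a result. Their levels were low, with 5 of the 45 at an FPKM of 1 or more in both comparisons, or 11.1%, beside 21.6% of all A9up genes. NT seeds had a higher FPKM than NT seedlings for 25 of the 45, or 55.6%, and 31.4% over all A9up genes. The transcript length was the same in both comparisons for 32 of the 45, so the levels of the others rest on unlike lengths. On log2(FPKM + 0.1) the change had a median of 0.96 in DS10:A9 seeds (all A9up genes 1.03) and of 1.14 in 35S:A9 seedlings (all A9up genes 1.16).

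Counting intervals were above 0 in both A9 comparisons for 8 of the 45 genes (17.8%), beside 14.5% of all A9up genes. Each comparison taken by itself, 13 were above 0 in DS10:A9 seeds (28.9%, all genes 20.8%) and 17 in 35S:A9 seedlings (37.8%, all genes 42.9%). The most abundant of the 8 was gene_19558, of the At2g16365 description. It was at 4.59 in NT seeds against 9.25 in DS10:A9 seeds (log2 fold 1.01, 0.65 to 1.40), and at 1.22 in NT seedlings against 3.22 in 35S:A9 seedlings (log2 fold 1.40, 0.79 to 2.03). The At3g07870-like gene_38643 had 0.90 in NT against 1.79 in T seeds (log2 fold 0.99, 0.20 to 1.90), and 0.85 against 3.33 in the seedling libraries (log2 fold 1.97, 1.20 to 2.80). LRR-repeat protein 3 (gene_69611) had 1.92 in NT against 3.64 in T seeds (0.92, 0.45 to 1.39), and 0.30 against 0.74 in the seedling libraries (1.30, 0.22 to 2.44). Another LRR-repeat protein 23 gene (gene_82837) had a log2 fold of 2.03 in seeds (0.06 to 4.42), from 3 fragments in NT and 12 in T. In seedlings its log2 fold was 2.19 (0.76 to 3.94), from 5 and 23 fragments. Its transcript length was 509 bases in the seed values and 1938 in seedlings. The At4g35930-like gene_66580 was at 0.72 and 1.50 in seeds, with a lower limit that rounds to 0.00, and at 0.62 and 2.11 in seedlings (1.77, 0.96 to 2.74).

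Some A9up F-box genes were at a much higher level in 1 tissue than in the other in the A9 comparisons. PP2-B13-like gene_34923 was at 5.91 in NT seeds against 10.3 in DS10:A9 seeds (log2 fold 0.80, 0.34 to 1.25), but at 0.08 and 0.22 in seedlings, from 1 and 3 fragments. The At3g06240-like gene_51170 showed the reverse, with 1.64 in NT seedlings against 2.82 in 35S:A9 seedlings (log2 fold 0.78, 0.07 to 1.52) and 0.03 and 0.10 in seeds. However, its transcript length was 2679 bases in these seed values and 1289 in seedlings. In the seeds of the A4a comparison it was at 0.26 and 0.61. The change with the largest fold in seedlings among the genes of at least 10 fragments was that of the At1g13570-like gene_22456, at 0.05 in NT seedlings against 1.54 in 35S:A9 seedlings, from 1 and 33 fragments. Its log2 fold of 4.94 has an interval of 2.45 to 10.38. In seeds it was at 1.17 and 1.89, with an interval of -0.13 to 1.54. The At3g06240-like gene_59090 was listed at 0 in NT seeds and at 0.20 in DS10:A9 seeds, from 4 fragments, and had 0.10 in NT against 0.66 in T seedlings, from 2 and 15 fragments (log2 fold 2.72, 0.79 to 6.06). The At1g60180 gene gene_4961 rested on at most 7 fragments in a library, and its intervals hold 0. Intervals in seedlings also hold 0 for LRR-repeat At1g55660-like gene_2513 (3.32 and 5.09 in seeds, 0.65 and 1.04 in seedlings), the At1g13570-like gene_32589 (1.56 and 2.36, 0.18 and 0.57), the At5g43190 kelch-repeat gene_46301 (1.12 and 1.98, 0.35 and 0.53) and LRR-repeat At3g03360-like gene_78546 (0.57 and 1.28, 0.21 and 0.42). In seeds, the intervals of gene_32589 (-0.13 to 1.38) and gene_78546 (-0.10 to 2.42) hold 0 as well. Those of gene_2513 (0.14 to 1.12) and gene_46301 (0.02 to 1.70) do not.

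**Figure D4:**
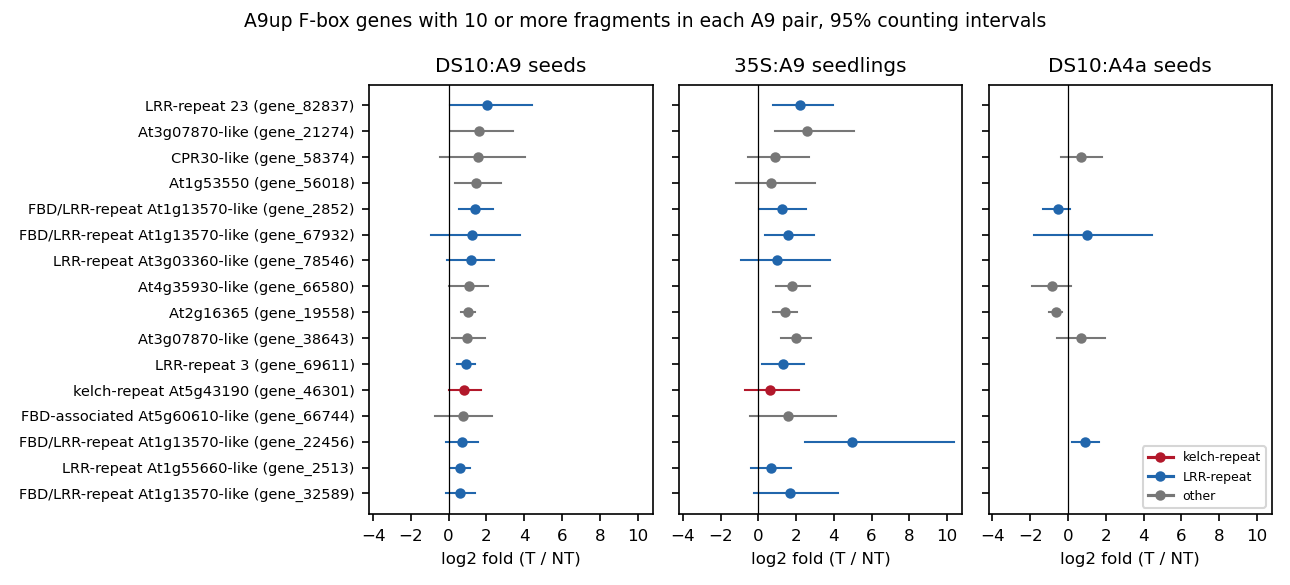
Log2 fold (T over NT) with 95% counting intervals in DS10:A9 seeds, 35S:A9 seedlings and, where listed, DS10:A4a seeds, for the 16 A9up F-box genes with at least 10 fragments in each A9 pair and no library listed at 0, coloured by type. Gene_19558 (At2g16365) has intervals above 0 in both A9 panels and below 0 in the A4a panel, and gene_22456 has its largest fold in seedlings.

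Of the 45 A9up F-box genes, 12 were also higher in DS10:A4a seeds, 15 were lower and 18 were in neither A4a table. These are 26.7% and 33.3% of the A9up F-box genes, beside 27.8% and 27.3% of all A9up genes, with 44.9% of all A9up genes in no A4a table. The shared genes are 10.5% of the F-box genes higher in DS10:A4a seeds and 10.4% of those lower. The gene with an interval off 0 in all 3 comparisons was gene_19558, which was higher with A9 and lower with A4a, as given above. The PP2-B13-like gene_34923 was higher in all 3, with 8.05 in NT seeds against 13.6 in DS10:A4a seeds (log2 fold 0.75, 0.43 to 1.08), and so was gene_22456, at 1.01 and 1.88 (0.90, 0.19 to 1.65). The other genes shared by the tables had an A4a interval that holds 0, apart from gene_19309, which was at 1.44 and 0.57 in the A4a comparison and whose A9 intervals hold 0. Higher in all 3 were also gene_38643 (0.31 and 0.50 in the A4a comparison), gene_58584 of the same locus (0 and 0.36), gene_51170 (0.26 and 0.61) and the CPR30-like genes gene_48078 (0.30 and 0.50) and gene_58374 (0.66 and 1.05). Lower with A4a were gene_66580 (0.88 and 0.48) and the At1g10780 gene gene_31153 (0.08 and 0.04), which was at 0.28 in NT seedlings against 1.31 in 35S:A9 seedlings (log2 fold 2.23, 0.91 to 3.77).

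The NT seed libraries of both seed comparisons can be set side by side for genes in both tables, and their gap measures how far 2 libraries of NT seeds differed. For the 6 F-box genes with at least 10 fragments in both NT libraries, the absolute log2 difference between these libraries had a median of 0.41 and ran from 0.21 to 1.54, and it was 0.6 or more in 2 of them. Over all 301 such genes the median was 0.42, and 31.9% differed by 0.6 or more. These genes had been selected on the same libraries, and the comparisons were normalized separately. Gene_38643 differed most, at 0.90 in the NT seeds of the A9 comparison and 0.31 in those of the A4a comparison, a gap larger than its log2 fold in either seed comparison. For gene_19558 the NT values were 4.59 and 5.98, and the T values, 9.25 with A9 and 3.79 with A4a, lay on either side of both. Its listing already required a T value above NT with A9 and below NT with A4a, so this order is partly set by the selection.

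Other genes of the SCF pathway were counted in the same tables. The tables listed 5 SKP1-like genes, 4 of them higher in DS10:A4a seeds and 2 in the A9up table, all at an FPKM of 1.14 or less in every library. All their intervals hold 0. Of 7 cullin-1 genes 3 were higher and 4 lower, none above 0.83. The only one with an interval off 0 was gene_6643, at 0.28 in NT seeds against 0.74 in DS10:A4a seeds. All 4 cullin-3A genes, which belong to another class of ubiquitin ligase, were lower, 2 of them with an interval below 0. The most abundant was gene_61259 at 14.8 and 9.68 (log2 fold -0.61, -1.20 to -0.03). A gene for subunit 2 of the COP9 signalosome, which removes NEDD8 from cullins, was at 2.21 and 4.54 (gene_4312, log2 fold 1.04, 0.36 to 1.74), and subunit 3 (gene_510) was at 0.19 and 0.38. The 2 genes for NEDD8 (RUB) and its conjugating enzyme were divided, with intervals that hold 0, and no RING-box or CAND1 gene was listed.

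Some F-box proteins whose descriptions do not contain the term are hormone or light receptors. The auxin receptor TRANSPORT INHIBITOR RESPONSE 1-like gene_14603 was at 1.90 in NT seeds against 1.22 in DS10:A4a seeds (log2 fold -0.64, -1.21 to -0.10). The jasmonate receptor coronatine-insensitive protein 1 (gene_32261) was at 3.89 and 6.02 (log2 fold 0.63, 0.33 to 0.93). Adagio proteins, which in Arabidopsis are the blue-light receptors ZEITLUPE and FKF1, were lower in DS10:A4a seeds for all 5 listed genes, 4 of them with an interval below 0. Adagio protein 1-like gene_20957 was at 27.0 and 16.2 (log2 fold -0.74, -1.28 to -0.24), and adagio protein 3 genes were at 19.3 and 12.1 (gene_53145, log2 fold -0.68), 3.45 and 2.15 (gene_63658) and 3.39 and 1.26 (gene_25482, log2 fold -1.43). None of these receptor genes was in the A9up table.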

How the data were processed

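The authors assembled transcripts, aligned the reads of each library and estimated expression, deposited as FPKM, and the submitters' processing notes list RSEM 1.2.12, Bowtie2 2.2.5, StringTie 1.04 and HISAT 0.1.6 without their roles. An FPKM of 0 is written as 0.01 in the deposited tables and is given here as 0. The deposited log2 folds and p-values compare the libraries of a pair; they hold the authors' own comparisons and were not used. The transcript lengths, in bases, stand beside the FPKM. In the A9up table, 4753 of 4755 gene identifiers have both comparisons. Tables that repeat A9up genes listed in an A4a table gave the same FPKM for 1317 of 1321 and 1297 of 1299 genes and were used for this check only.

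Log2 folds were computed from FPKM (SciPy 1.17.1 and NumPy 2.4.6 under Python 3.11.15). Fragments were recovered from the whole steps of FPKM times length (less 65 bases in the seed comparisons and 45 in seedlings). Depths of 11300000 and 11678000 fragments were found for NT and DS10:A9 seeds, 13244000 and 13380000 for NT and 35S:A9 seedlings, and 16236000 and 16372000 for NT and DS10:A4a seeds. Of values of up to 10 fragments, 86.0 to 93.4% were whole within 0.1 fragment. An FPKM of 1 in a gene of 1 kb corresponds to 10.6 to 15.3 fragments. On simulated counts for the same genes, with known depths and no threshold on the fold, 97.7 to 98.4% of the intervals held the true fold. The listed genes had passed such a threshold, so this share does not give the coverage for them. Intervals and the floor of 3 counts cover counting error only.

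The members, lists and alternatives were chosen with earlier results of these data known. Genes named are F-box genes shared by the A9up and A4a tables with an FPKM of 1 or more, the 3 of each table and type with the highest mean FPKM, the 5 of each table with the largest change on log2(FPKM + 1), and the 2 most abundant of each name or of each locus with 4 or more genes. Most others are said to be chosen later or complete a group of 6 or fewer. Gene_23653 and gene_24934 were named for their values, as the only genes of their name or locus with an interval below 0. Within each comparison there is 1 library per condition, and no test was run. The 2 NT seed libraries were normalized in separate comparisons and both have values only for genes listed in the A9up and an A4a table, so they were not pooled as 1 condition. The labels do not assign the NT seed samples to a seed comparison, so the tables' own pairing was kept. None of the 276 identifiers or protein accessions matched the RefSeq table of the K326 tobacco genome, and no coordinates or sequences are given.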

Additional observations from a re-analysis of the deposited data

Results flagged for a closer look

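Gene_19558, of the At2g16365 description, differed in direction between the seed comparisons, with log2 folds of 1.01 (DS10:A9) and -0.66 (DS10:A4a). Both counting intervals are off 0 (0.65 to 1.40 with A9, and an upper end of -0.31 with A4a), but each rests on 1 library against 1, and the difference was not tested. It was the only F-box gene with an interval above 0 in DS10:A9 seeds and below 0 in DS10:A4a seeds. All 15 F-box genes listed as higher with A9 and lower with A4a have these directions by the way they were listed.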

How the results depend on the processing

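No paired analysis was possible because each comparison has 1 library per condition, and for the same reason no replicate could be left out. The share of higher genes in the A4a tables, 44.2%, was between 42.2 and 48.5% under all but 1 alternative, and 37.5% (9 of 24) at an FPKM of at least 5 (chosen after seeing the data), where 42.9% of all listed genes were higher. The 48.5% was found with -0.6 as the cutoff for lower genes, where 49.5% of all listed genes were higher. Counts depended on depth. With an FPKM of at least 1, the 45, 114 and 144 genes (A9up, higher and lower with A4a) became 5, 38 and 50, and with at least 10 fragments 16, 65 and 89. Without genes listed at 0 in a library (chosen after seeing the data) 26 A9up genes were left. With 99% intervals, 1 gene in place of 8 was above 0 in both A9 comparisons. With A4a, 22 in place of 33 were above 0 and 24 in place of 38 were below it. An FPKM of at least 1 left 3 of the 8. Fewer genes or wider intervals make these counts lower by construction. The median changes depended on the pseudocount, which with 0.01 and 1 added to the FPKM gave 1.49 and 0.39 for DS10:A9 seeds, 1.72 and 0.31 for 35S:A9 seedlings (1.68 at an FPKM of at least 1) and -0.56 and -0.07 for DS10:A4a seeds (-0.44 with 0.1, and -0.07 over all listed genes with 1). For named genes, 167 of 174 recomputed log2 folds stayed within their counting interval, 7 left it with 1 added to the FPKM, and none changed direction. Genes listed at 0 were not among them. With equal depths in each pair, the counts of intervals off 0 stayed at 8 (both A9 comparisons), 33 (above 0 with A4a) and 38 (below 0 with A4a).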
